A study of Mus musculus with 6 samples.

Results

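The mitochondrial carriers of the SLC25 family, with the uncoupling proteins Ucp1 and Ucp3 that belong to it, were compared between C2C12 cells grown with and without added pyruvate. Members were taken by name, as every gene whose probe sets carry a single symbol of the form Slc25a with a number, or Ucp1, Ucp2 or Ucp3. This gave 46 genes and 96 probe sets out of 18193 genes on the arrays. Ucp2 had no probe set of 1 symbol and was not analysed here. C2C12 is an established mouse line of muscle precursors, which can fuse to form myotubes, and the labels call these cultures undifferentiated. The medium of the untreated cells was basal DMEM, and that of the pyruvate cells was DMEM made without pyruvate to which 50 mM sodium pyruvate was added. Both held 10% fetal bovine serum, glutamine at 4 mM and 1% antibiotics, and both groups were harvested at 72 h. The labels do not say whether basal DMEM held pyruvate of its own, and no medium with matched sodium was analysed. There were 3 samples and 3 arrays in each group, and the title asks whether pyruvate induces mitochondrial biogenesis without the coactivator PGC-1alpha. Nothing says that the samples of a group were grown apart, and the p-values therefore rest on a spread that may be technical alone.

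SLC25 carriers sit in the inner mitochondrial membrane and exchange metabolites, nucleotides, cofactors and ions between cytosol and matrix. The ADP/ATP exchangers and the phosphate carrier supply ATP synthase and export what it makes, while uncoupling proteins let protons return to the matrix without making ATP. Pyruvate itself enters through a separate carrier, Mpc1 with Mpc2, and citrate, malate and aspartate formed from it leave through SLC25 carriers. In muscle the family is known for the ADP/ATP exchanger Slc25a4 and for Ucp3.

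The carriers of citrate (Slc25a1), dicarboxylates (Slc25a10 and Slc25a11) and acylcarnitine (Slc25a20) were modestly higher in pyruvate cells. So were single members of the glutamate (Slc25a22), amino acid (Slc25a29) and cofactor (Slc25a42) groups. Slc25a45, whose substrate is little known, rose most. The calls of Slc25a10, Slc25a11, Slc25a20, Slc25a22 and Slc25a42 were each lost when some single array was left out. The calcium-regulated ATP-Mg carrier Slc25a24 was lower. Of 46 members 35 had a mean signal above the filter, the median of all probe sets (about 30.3 signal units), and 11 of these rose and 1 fell (limma, adjusted p under 0.05, each gene read by its brightest probe set). Among all 10685 genes tested, 35.1% were called in either direction, 20.7% higher and 14.5% lower, and among the carriers 34.3% were called, so the share of changed carriers was near the background. The median log2 change was 0.15 over the tested carriers and 0.03 over all tested genes, and 26 of the 35 changes were above 0. All 11 carriers that rose had pyruvate arrays wholly above the untreated ones. This comes from the same values as the calls and is no separate support for them. In total the groups did not overlap for 17 of 35 carriers, 13 with pyruvate above and 4 below, against 48.6% of all genes (28.6% above and 20% below). The changes were small, from 0.15 to 0.58 on the scale of log2(signal + 16) among those that rose. In bulk RNA such as this, fewer cells of a type and less RNA per cell cannot be told apart.

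The arrays differed in how bright transcripts read. The 248 probe sets above 12 on the log2 scale were all higher with pyruvate, with a median of 0.43, while the median lay between -0.05 and 0.01 for probe sets below 11. Slc25a3 and Slc25a4, the brightest carriers, lie in the first range and Slc25a5 and Slc25a39 in the next one, where the median was 0.15. Under quantile normalization, which gives every array the same distribution, 8 of the 35 tested carriers were called higher, against 20% of all genes. All 8 were among the 11 named as rising above, and Slc25a3, Slc25a4 and Slc25a39 lost the call. Under cyclic loess normalization 9 of 35 were called higher, against 19.8% of all genes. These were the same 11 without Slc25a11 and Slc25a39, and 7 were called under both. Slc25a24 was called lower under each of them. For all genes the median moved by under 0.1 with any scaling tried.

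**Figure D1:**
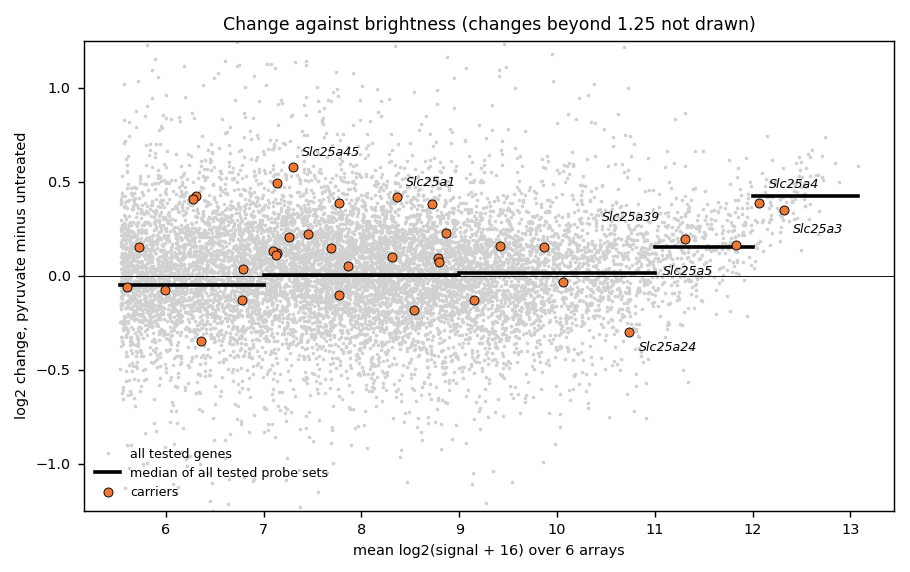
Log2 change between pyruvate and untreated cells (vertical axis) against mean log2(signal + 16) over the 6 arrays (horizontal axis). Grey dots are all tested genes, orange dots the 35 tested carriers, and black bars the median of all tested probe sets in 5 ranges of brightness; Slc25a3 and Slc25a4 lie near the raised median of the brightest range, which is 0.43.

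Myotube genes moved with the treatment as well. The summed signal of 12 myotube markers was 7107 to 7573 on the untreated arrays and 932 to 1228 with pyruvate. Of the 11 markers above the filter 10 fell, against 14.5% of all tested genes called lower. Neb, Tnnt3 and Myh3 had pyruvate means of 16.8, 28.2 and 26.8, under the filter level of about 30.3. They passed the filter through their untreated arrays. Myh8 was near 0 in both groups (2.43 and 2.10). Of 6 myoblast markers Myod1 rose and 3 fell, with summed signals of 7653 to 7941 and 6790 to 7055. Summed markers of fat cells (275 to 283 and 234 to 317), bone cells (80.5 to 101 and 65.8 to 95.9) and macrophages (136 to 166 and 148 to 204) were low and overlapped between groups. In the fat cell list Ucp1, Cidea and Lep were near 0, and Cox8b, which muscle also expresses, went from 46.5, 44.3 and 40.4 to 18.5, 17.4 and 5.6, below the filter (-1.03, adjusted p = 0.015 in the limma fit without it). The part of the loss of myotube transcripts in the carrier changes was not tested.

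Of 4 listed carriers of di- and tricarboxylates, 3 had a probe set of 1 symbol. Each of these 3 was called higher, against 20.7% of all tested genes, and their upstream sequences are shown because of these calls. The call of Slc25a11 was kept in only 6 of 16 alternative fits of its probe set. Slc25a1 exports citrate to the cytosol, where it feeds lipid synthesis, Slc25a10 exchanges malate and succinate for phosphate, and Slc25a11 exchanges oxoglutarate for malate in the malate-aspartate shuttle. The 250 bases before each start site, from RefSeq in build GRCm38.p6, lie at chr16:17928220-17928469 (- strand), chr11:120491587-120491836 (+ strand) and chr11:70647040-70647289 (- strand), written 5′ to 3′ on the strand of the gene. Capitals mark any match on either strand to the box bound by Sp1, read as GGGCGG, the box bound by NF-Y, read as CCAAT, or the E-box, read as CACGTG.
Slc25a1: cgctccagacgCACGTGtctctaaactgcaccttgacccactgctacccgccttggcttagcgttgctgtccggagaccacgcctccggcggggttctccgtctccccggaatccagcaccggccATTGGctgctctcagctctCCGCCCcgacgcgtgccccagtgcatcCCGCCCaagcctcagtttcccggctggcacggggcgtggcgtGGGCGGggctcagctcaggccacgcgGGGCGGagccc
Slc25a10: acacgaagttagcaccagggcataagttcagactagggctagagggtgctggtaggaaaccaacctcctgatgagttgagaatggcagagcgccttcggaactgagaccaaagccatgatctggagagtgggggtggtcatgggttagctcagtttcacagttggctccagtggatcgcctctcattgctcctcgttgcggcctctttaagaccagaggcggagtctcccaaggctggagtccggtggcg
Slc25a11: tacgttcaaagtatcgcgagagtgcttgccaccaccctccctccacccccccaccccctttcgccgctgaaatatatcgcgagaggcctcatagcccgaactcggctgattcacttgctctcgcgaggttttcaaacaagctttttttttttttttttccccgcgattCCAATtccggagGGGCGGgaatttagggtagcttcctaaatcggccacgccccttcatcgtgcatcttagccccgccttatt
The Slc25a1 window held 4 Sp1 boxes, 1 NF-Y box and 1 E-box, the Slc25a11 window 1 Sp1 box and 1 NF-Y box, and the Slc25a10 window none of these letters. Among all 32851 windows of this length 32.7% held GGGCGG, 33.9% CCAAT and 6.02% CACGTG, against 71.1%, 44.4% and 17.8% of 45 windows of the 36 carriers matched in the table. The exact NRF1 palindrome, named for a regulator of mitochondrial genes, was in 0 of the 45 carrier windows and in 0.78% of all windows. The site of the estrogen-related receptors, searched as TCAAGGTCA, was in 0 of the 45 and in 0.39% of all. These matches describe letters and not binding, and the motifs were chosen after the expression values were known.

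Slc25a1 had signals of 262, 281 and 262 on the untreated arrays and 366, 374 and 351 with pyruvate. The groups were well apart, and the log2 change was 0.42 ± 0.06 (SE, n = 3 arrays a group; limma adjusted p = 0.00038). It was called in each alternative fit, with 0.43 after quantile normalization. Slc25a10 read 422, 394 and 429 in untreated cells and 513, 479 and 472 in pyruvate cells. Its change was 0.22 ± 0.06 (adjusted p = 0.013), and without untreated replicate 2 the adjusted p was 0.058. A second probe set gave 0.20 (adjusted p = 0.044), a call lost without any 1 of 5 arrays (adjusted p up to 0.15). Slc25a11 read 887, 831 and 899 against 964, 1011 and 934, a change of 0.15 ± 0.05 that just passed (adjusted p = 0.049). Leaving out any 1 of 5 arrays, all but pyruvate replicate 3, ended the call of Slc25a11 (limma adjusted p up to 0.18). Cyclic loess normalization ended it as well (0.11, adjusted p = 0.14).

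**Figure D2:**
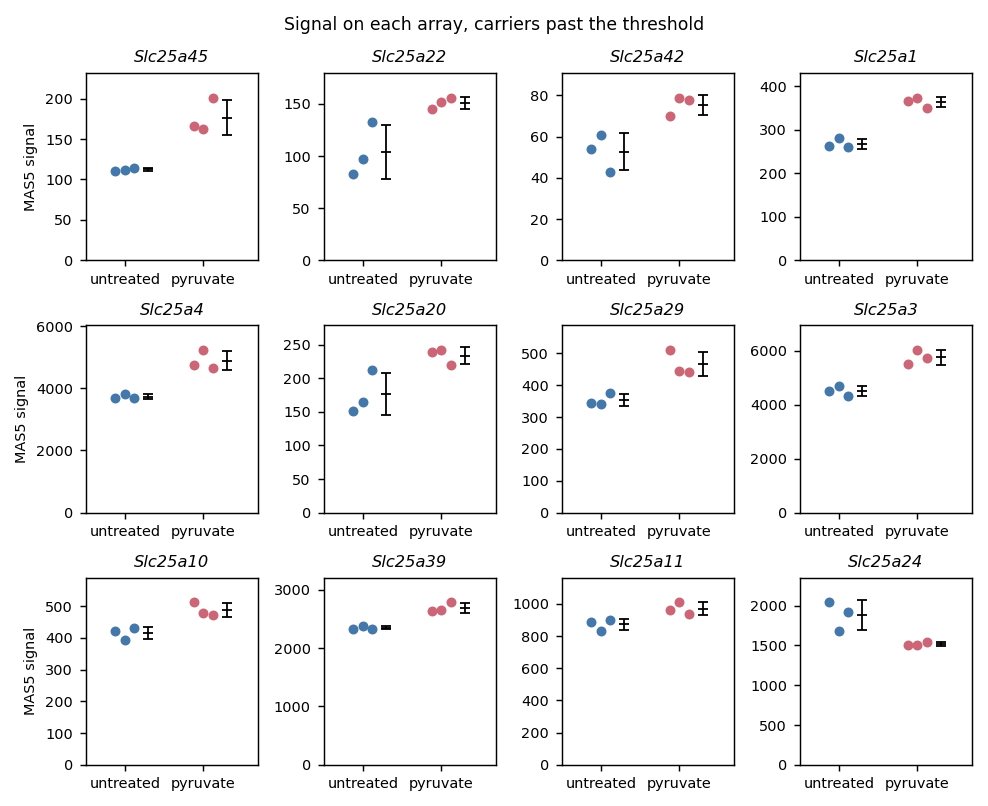
MAS5 signal (vertical axes, linear from 0) on each of the 3 untreated (blue) and 3 pyruvate arrays (red) for the 12 carriers past the threshold, with the mean and SD of each group as bars. For 11 carriers every red point lies above every blue one, and for Slc25a24 every red point lies below.

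Among the carriers of aspartate and glutamate, Slc25a22 rose and Slc25a12 did not pass. Slc25a22, a glutamate carrier, read 82.4, 97.5 and 133 in untreated cells and 145, 151 and 156 with pyruvate. The untreated arrays were spread over a wider range than the pyruvate arrays, and the change was 0.49 ± 0.13 (adjusted p = 0.015). Its adjusted p was between 0.051 and 0.059 without untreated replicate 1, untreated replicate 2 or pyruvate replicate 3. Slc25a12, the aspartate/glutamate carrier of muscle and brain, read 411, 403 and 422 against 378, 480 and 470. Pyruvate replicate 1 was the lowest of the 6 arrays and the other pyruvate arrays the highest, and the change was 0.09 with a 95% interval of -0.09 to 0.27 (adjusted p = 0.43). Without pyruvate replicate 1 it was 0.20 (adjusted p = 0.023). The dimmer probe sets of Slc25a12 gave -0.08 and -0.14 (adjusted p = 0.65 and 0.43), so its probe sets did not share a direction. Slc25a13, the other aspartate/glutamate carrier and the main one of liver, was near the floor, with 26.6, 8.5 and 5.0 in untreated cells and 16.2, 6.8 and 12.4 with pyruvate. Slc25a18, a further glutamate carrier, also lay below the filter, at 19.2 ± 2.67 and 13.7 ± 4.91 (SD, n = 3 each).

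The acylcarnitine carrier Slc25a20, which brings long-chain fatty acids bound to carnitine into the matrix for oxidation, was higher with pyruvate. Its signals were 152, 165 and 212 in untreated cells and 239, 243 and 220 with pyruvate, so that untreated replicate 3 came close to the pyruvate range. The change was 0.39 ± 0.11 (adjusted p = 0.016). A second, dimmer probe set gave 0.09 (adjusted p = 0.53), and the call of the first was lost without untreated replicate 1 (adjusted p = 0.069), untreated replicate 2 (0.059) or pyruvate replicate 2 (0.053).

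Of 4 tested carriers of other amino acids, Slc25a29 rose. Slc25a29 carries basic amino acids, and its brightest probe set read 345, 341 and 375 in untreated cells and 511, 446 and 443 in pyruvate cells. The groups were clearly apart, with a change of 0.38 ± 0.07 (adjusted p = 0.0015). Of its 5 probe sets 3 were called higher, by 0.37 to 0.41, and the other two gave 0.12 and 0.02 (adjusted p = 0.44 and 0.93). The ornithine carrier Slc25a15 (-0.13, adjusted p = 0.38, with a dimmer probe set at 0.31, adjusted p = 0.15), the glycine carrier Slc25a38, needed for heme synthesis (0.13, adjusted p = 0.41), and the branched-chain amino acid carrier Slc25a44 (0.11, adjusted p = 0.39) did not pass. Slc25a2, a further ornithine carrier, was at 13.5 ± 3.90 and 13.5 ± 4.81, below the filter.

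Carriers of cofactors were mixed. Slc25a42, which carries coenzyme A, read 54.0, 60.9 and 43.0 in untreated cells and 70, 78.9 and 77.6 with pyruvate. The groups did not overlap, at a dim level, and the change was 0.42 ± 0.13 (adjusted p = 0.026), which was no longer past the threshold without untreated replicate 1 or 3 or pyruvate replicate 2 or 3 (adjusted p of 0.059 to 0.10). Slc25a26, which brings S-adenosylmethionine into the matrix, read 54.3, 50.3 and 49.7 against 98.6, 51.8 and 75.7. Pyruvate replicate 2 lay within the untreated range, and the change of 0.41 had an interval of 0.03 to 0.78 (adjusted p = 0.091). Without that array it was 0.60 (adjusted p = 0.0085). Slc25a32, the carrier of folate and FAD, was at 0.22 on its brightest probe set (adjusted p = 0.074), with adjusted p-values of 0.031 without pyruvate replicate 3 and 0.11 to 0.22 without any other array. Its second probe set went the other way, from 83.4, 82.4 and 92.0 to 72.8, 58.2 and 74.2 (-0.28, adjusted p = 0.090), and the dimmest was at -0.09 (adjusted p = 0.72), so Slc25a32 had no shared direction. Slc25a16, linked to coenzyme A (-0.10), and Slc25a17, the family's peroxisomal cofactor carrier (0.10), did not pass (adjusted p = 0.42 and 0.31).

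Slc25a51, which brings NAD into mitochondria, was not called on its brightest probe set but fell on the other two. The brightest read 543, 628 and 563 in untreated cells and 525, 541 and 514 with pyruvate, the groups lying just apart, and the change was -0.13, with 95% bounds of -0.26 and 0.01 (adjusted p = 0.14). The next read 512, 492 and 484 against 330, 336 and 377. Its groups were far apart, with a change of -0.50 ± 0.06 (adjusted p = 0.00015), and it was called in each alternative fit of that probe set. The dimmest changed by -0.49 (adjusted p = 0.032), which was lost without untreated replicate 1 or 3 or pyruvate replicate 1 (adjusted p up to 0.13). Its mean was 44.4 in untreated cells and 27.1 with pyruvate, the latter under the filter level of about 30.3. It thus passed the filter through its untreated arrays and is no separate support for a fall. With a gene's probe sets averaged, this dimmest one among them, Slc25a51 fell by 0.37 (adjusted p = 0.0011).

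The phosphate carrier Slc25a3 and the ADP/ATP exchangers Slc25a4 and Slc25a5 were bright, and the scaling moved their values: Slc25a3 and the brightest Slc25a5 probe set changed sign under quantile normalization, and Slc25a4 stayed above 0 but lost its call. Slc25a3, which imports phosphate for ATP synthase, read 4507, 4688 and 4329 in untreated cells and 5490, 6028 and 5729 with pyruvate. As the authors scaled the arrays the groups were apart and the change was 0.35 ± 0.05 (adjusted p = 0.00056), against -0.07 after quantile normalization (adjusted p = 0.14) and 0.16 after cyclic loess (adjusted p = 0.0068). A dim second probe set gave -0.20 (adjusted p = 0.29). Slc25a4, the exchanger of heart and skeletal muscle, read 3680, 3816 and 3676 against 4763, 5235 and 4664. Its change was 0.39 ± 0.05 (adjusted p = 0.00029), against 0.08 after quantile normalization (adjusted p = 0.087) and 0.22 after cyclic loess (adjusted p = 0.0020). A second probe set gave 0.36 (adjusted p = 0.0015; 0.08 after quantile normalization) and another 0.04 (adjusted p = 0.52). Slc25a31, the exchanger of germ cells, was listed at 0.70 to 5.10 on the 6 arrays, below the filter.

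Slc25a5, the exchanger of growing cells, gave opposite answers on its 8 probe sets. The brightest read 3447, 3497 and 3316 in untreated cells and 3410, 4281 and 3858 with pyruvate. Pyruvate replicate 1 lay within the untreated range, and the change of 0.16 ± 0.07 did not pass (adjusted p = 0.11; -0.06 after quantile normalization; 0.25 and adjusted p = 0.0082 without that array). The next 3 in brightness were called higher, by 0.26 to 0.29, and were at 0.08 each after quantile normalization (adjusted p = 0.11 to 0.30). One of these calls was also lost without untreated replicate 3 or pyruvate replicate 3 (adjusted p up to 0.071). The 4 dimmer ones were called lower, by 0.18 to 0.83. The strongest of these read 1033, 1112 and 1096 in untreated cells and 542, 648 and 623 with pyruvate, a change of -0.83 ± 0.07 (adjusted p = 7e-06). It kept its size after quantile normalization (-0.82, adjusted p = 9.5e-06), as did the next, at -0.81 and -0.79. The smallest of the 4, at -0.18 (adjusted p = 0.048), was lost without any 1 of 5 arrays (adjusted p up to 0.18). Both of the largest falls, and 4 others of the 8, are on probe sets whose names end in _x_at, which marks probes that can also bind other transcripts, so the direction of Slc25a5 was not settled. The same suffix is on the brightest probe sets of Slc25a4 and Slc25a39 and on 2 of the 3 called ones of Slc25a29; each of these genes also had a called probe set without it. Of 19 members with more than 1 probe set above the filter, Slc25a5 was the one called in both directions. For 1 member every such probe set was called higher, for 9 none was called, and for 8 some were called in 1 direction and the rest did not pass.

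**Figure D3:**
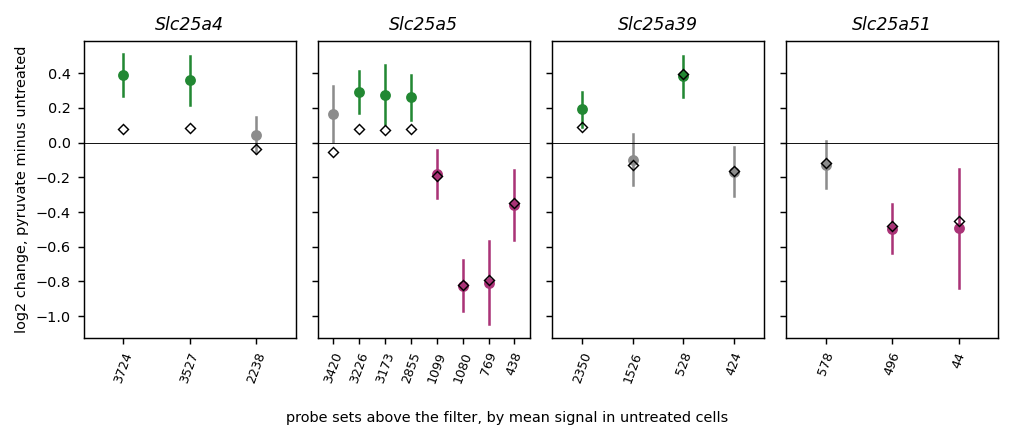
Log2 change with 95% interval (vertical axis) for each probe set above the filter of Slc25a4, Slc25a5, Slc25a39 and Slc25a51, ordered by mean signal in untreated cells (horizontal axis, in signal units). Green is called higher, purple lower and grey not called, and open diamonds give the value after quantile normalization; the dimmer Slc25a5 probe sets lie between -0.18 and -0.83 and the brighter ones above 0.

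The carriers that exchange ATP-Mg for phosphate, and so set the adenine nucleotide content of the matrix under the control of calcium, held the 1 called fall. Slc25a24 read 2046, 1679 and 1916 in untreated cells and 1504, 1510 and 1543 with pyruvate. The pyruvate arrays were close together below the untreated range, and the change was -0.30 ± 0.07 (adjusted p = 0.0050), or -0.36 after quantile normalization (adjusted p = 0.0020). It was called in each alternative fit of that probe set, but the dimmer second one read 557, 559 and 537 against 565, 519 and 539 (-0.03, adjusted p = 0.74). The brightest Slc25a25 probe set gave 0.03 (95% interval -0.22 to 0.29, adjusted p = 0.85), while a dim one gave 0.50 with overlapping arrays (adjusted p = 0.044). That call was lost without untreated replicate 2 or 3 or pyruvate replicate 1 or 3 (adjusted p up to 0.16). This dim probe set had a mean of 27.7 in untreated cells, under the filter level of about 30.3, and 45.7 with pyruvate. It therefore passed the filter through its pyruvate arrays. Slc25a23 and Slc25a41 lay below the filter, at 21.3 ± 6.26 and 14.4 ± 0.91 for the first and 11.2 ± 2.79 and 12.9 ± 4.62 for the second.

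The uncoupling proteins were near the floor of the arrays. Ucp1, which produces heat in brown fat, read 8.2, 1.9 and 1.6 in untreated cells and 2.0, 7.0 and 11.1 with pyruvate. Ucp3, the form found mainly in skeletal muscle, read 36.2, 40.8 and 26.9 against 46.4, 28.1 and 47.3. The Ucp3 arrays overlapped, and the change was 0.15, with a 95% interval from -0.24 up to 0.54 (adjusted p = 0.55). A rise or a fall within those bounds could not be seen at so low a signal. The brain-enriched relatives Slc25a14 (0.12, adjusted p = 0.33) and Slc25a27 (-0.35, adjusted p = 0.069) and the kidney-enriched Slc25a30 (0.16, adjusted p = 0.090) did not pass. Slc25a27 read 77.9, 83.4 and 69.5 against 65.5, 61.6 and 44.9, without overlap, and passed when pyruvate replicate 1 was left out (-0.43, adjusted p = 0.045). The brightest probe set of Slc25a30 passed without the same array (0.24, adjusted p = 0.0062). Its other probe sets above the filter gave 0.06, 0.01 and 0.39 with all arrays (adjusted p = 0.46, 0.94 and 0.15).

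Of the carriers linked to glutathione, Slc25a39 rose as the authors scaled the arrays. Its brightest probe set read 2333, 2383 and 2336 in untreated cells and 2630, 2649 and 2790 with pyruvate, a change of 0.19 ± 0.05 (adjusted p = 0.0083) that was 0.09 after quantile normalization (adjusted p = 0.11) and 0.07 after cyclic loess (adjusted p = 0.24). A dimmer one read 524, 533 and 526 against 666, 732 and 683, far apart, and its change of 0.38 (adjusted p = 0.00027) was 0.40 after quantile normalization. The other two above the filter gave -0.10 and -0.17 (adjusted p = 0.29 and 0.071), so the probe sets of Slc25a39 did not share a direction. Slc25a40 was at 0.05 (adjusted p = 0.77). The mitoferrins Slc25a37 and Slc25a28, which import iron for heme and iron-sulfur clusters, did not pass (0.07 and 0.15, adjusted p = 0.49 and 0.23).

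On their brightest probe sets the pyrimidine nucleotide carriers lay on opposite sides of 0, and neither passed. Slc25a33 was at 0.21 (limma adjusted p = 0.084) and Slc25a36 at -0.18 (adjusted p = 0.071). Without pyruvate replicate 2, this Slc25a36 probe set was at -0.24 (adjusted p = 0.034). Its other probe sets gave 0.04 and -0.26 (adjusted p = 0.77 and 0.19), so the probe sets of Slc25a36 did not share a direction. The largest rise of the family was in Slc25a45, a carrier whose substrate is little known. It read 111, 112 and 115 in untreated cells and 166, 163 and 201 with pyruvate. The change of 0.58 ± 0.09 (adjusted p = 0.00078) was larger than those of 96.9% of tested genes and was called in each alternative fit. Slc25a46, an outer membrane protein that helps shape mitochondria, was at 1066 ± 18.2 and 1041 ± 59.6 (-0.04, adjusted p = 0.65), and the dim Slc25a47 and Slc25a53 were at -0.08 and -0.06 (adjusted p = 0.72 and 0.82).

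**Figure D4:**
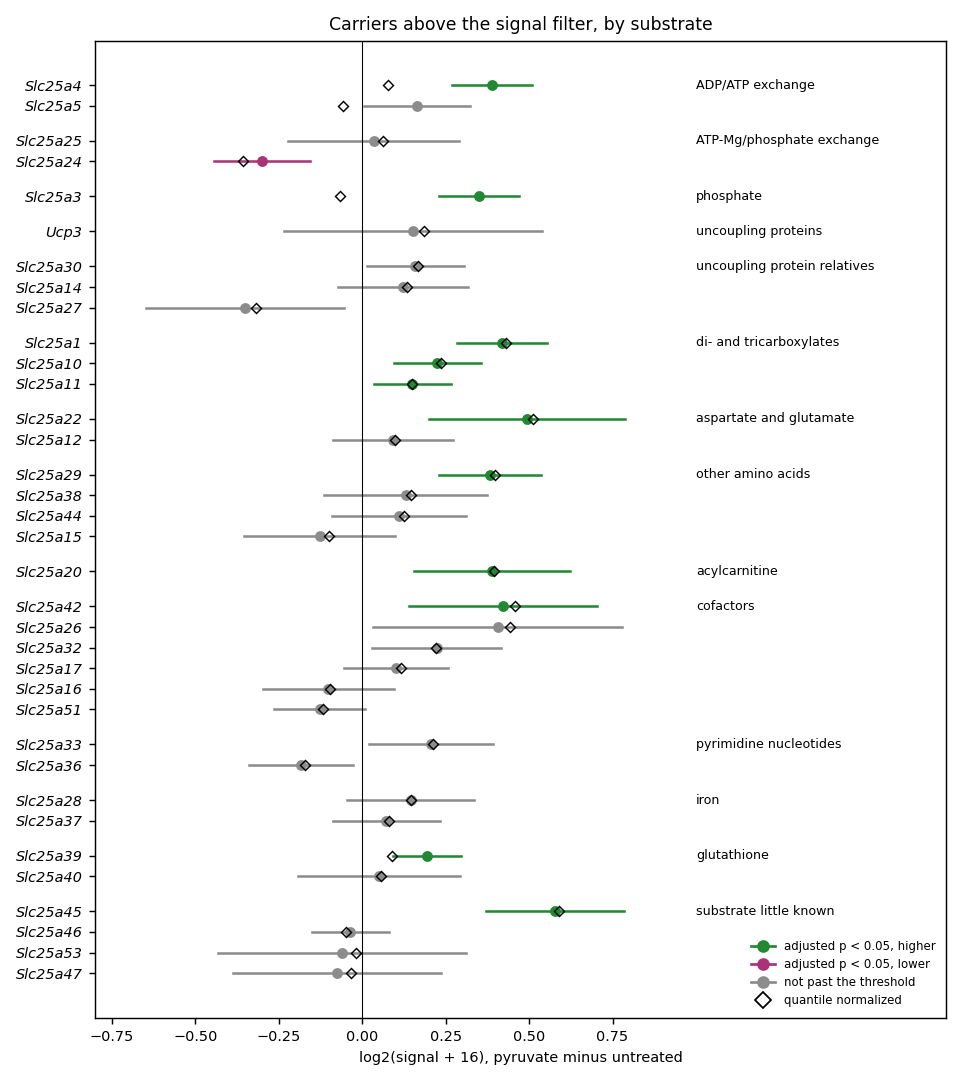
Log2 change of the brightest probe set of each of the 35 tested carriers (horizontal axis) with its 95% interval, grouped by substrate (rows). Green circles are the 11 called higher, the purple one is Slc25a24, grey ones did not pass, and open diamonds give the change after quantile normalization, which is far to the left of the circle for Slc25a3, Slc25a4 and Slc25a5.

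The 23 tested carriers that did not pass ranged from -0.35 to 0.41, and 15 of them were above 0. Their 95% intervals reached from -0.65 to 0.78, so changes as large as those called lay within the intervals of some of them. For 5 of them the groups did not overlap, against 21.5% of all genes that were not called. The 11 carriers below the filter had group means of 2.60 to 31.3, and 0 of them was called by limma in the fit without the filter (lowest adjusted p = 0.38, and 0 at an unadjusted p under 0.05). Besides those named above they were Slc25a34, Slc25a35, Slc25a48 and Slc25a54. The counts rested in part on single arrays: 7 carriers were called higher without untreated replicate 1 or without untreated replicate 2, and 13 without pyruvate replicate 1. Calls moved over all genes too, with 15.6%, 16.4% and 19.5% higher in those fits, against 20.7% with all arrays. Without the signal filter 7 of 46 carriers were higher, against 9.72% of all genes, and Slc25a11, Slc25a20, Slc25a22 and Slc25a42 lost their calls. Of the 12 calls, 7 were kept whichever array was left out, those of Slc25a1, Slc25a3, Slc25a4, Slc25a24, Slc25a29, Slc25a39 and Slc25a45.

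The balance between carriers of a like substrate was read within each array for 6 pairs, as the difference of 2 log2 signals. Each signal was that of the gene's brightest probe set. Slc25a4 minus Slc25a5 was 0.09, 0.13 and 0.15 in untreated cells and 0.48, 0.29 and 0.27 with pyruvate, a shift of 0.22 toward Slc25a4 in all 3 arrays. It was 0.13 after quantile normalization, and it rests on the brightest probe sets of Slc25a4 and Slc25a5 alone. Another Slc25a4 probe set changed by 0.04, less than the 0.16 of the Slc25a5 probe set used here. Slc25a33 minus Slc25a36 went from -1.50, -1.45 and -1.49 to -1.21, -1.12 and -0.94, a shift of 0.39. That shift rests on the brightest probe set of Slc25a36 alone. For both pairs the groups did not overlap, and the exact two-sided permutation p was 0.10, the smallest that 3 against 3 arrays allow (0.30 after Benjamini-Hochberg adjustment over the 6 pairs). Slc25a24 minus Slc25a25 shifted by -0.33 with overlapping arrays (exact permutation p = 0.20), and by -0.42 after quantile normalization and -0.45 after cyclic loess, without overlap (exact permutation p = 0.10 each). The shifts for Slc25a39 and Slc25a40 (0.14; 0.03 after quantile normalization and -0.00078 after cyclic loess), Slc25a10 and Slc25a11 (0.07; 0.09 and 0.13 after the same scalings, exact permutation p = 0.10 each) and Slc25a37 and Slc25a28 (-0.07) had exact permutation p-values of 0.40, 0.40 and 0.70. Each pair can show only unequal change, since levels of different probe sets are not comparable.

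Genes that work beside the carriers were read from 8 lists, and those named here as rising or falling had adjusted p-values from 4.3e-06 (Me1) to 0.045 (Pank2) by limma. The counts stand against 20.7% higher and 14.5% lower among all tested genes, and with 5 to 23 genes a list nothing is read from their shares. In the malate-aspartate and glycerol phosphate shuttles 3 of 6 rose and 1 fell (median 0.17). The malate dehydrogenases Mdh1 and Mdh2 rose by 0.38 and 0.23 and the aminotransferase Got2 by 0.35, while Gpd2, the mitochondrial glycerol phosphate dehydrogenase, fell by 0.28. Mdh2 is bright and was at -0.01 after quantile normalization (adjusted p = 0.86). Around citrate 2 of 6 rose and 1 fell (median 0.07), with the malic enzyme Me1 rising by 0.61, Idh1 by 0.16 (0.11 after quantile normalization, adjusted p = 0.079) and Aco1, the cytosolic aconitase that also senses iron, falling by 0.74. In the carnitine system 3 of 5 rose and 0 fell (median 0.24; limma, with 0 also after quantile normalization). Cpt1c rose by 1.39, from a dim mean of 26.9 in untreated cells to 95.8 with pyruvate. Its untreated mean lay under the filter level of about 30.3, so it passed the filter through its pyruvate arrays. The palmitoyltransferase Cpt1a rose by 0.53 and the carnitine importer Slc22a5 by 0.24, and Cpt1b was not matched. Cpt2, named after its value was seen because it acts after Slc25a20 in the matrix, was at -0.12 (limma adjusted p = 0.33).

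Among enzymes of ornithine, glutamate and branched-chain amino acids 3 of 5 rose and 0 fell (median 0.28), namely Bckdha by 0.46, its kinase Bckdk by 0.32 and ornithine aminotransferase Oat by 0.28. In heme and iron-sulfur assembly 5 of 8 rose and 1 fell (median 0.20), with Ppox up by 0.55 and the scaffold Iscu by 0.54, Fech by 0.22 and Cpox down by 0.45, whereas the mitoferrins did not pass. Makers of cofactors had 1 of 10 higher and 2 lower (median 0.05), with the pantothenate kinases Pank2 rising by 0.16 and Pank3 falling by 0.26 and Mthfd1l falling by 0.30. For mitochondrial nucleotide supply 0 of 9 rose and 2 fell (median 0.03), the adenylate kinases Ak4 by 1.05 and Ak3 by 0.31. Of 23 other channels and carriers of mitochondria 7 rose and 0 fell (median 0.02). Among them were Sfxn4 at 0.59, Mpv17 at 0.49, the potassium/proton exchanger Letm1 at 0.34 and Sfxn3 at 0.33. Sfxn4 went from a dim mean of 23.6 in untreated cells to 43.9 with pyruvate. Its untreated mean lay under the filter level of about 30.3, so it passed the filter through its pyruvate arrays, as Cpt1c did. After quantile normalization 5 of those 23 were higher and 2 lower. Mpc1, through which pyruvate enters and which was likewise named after its value was seen, was at 1068 ± 68.5 and 1005 ± 40.7 (-0.08, adjusted p = 0.29).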

How the data were processed

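Total RNA of 6 C2C12 samples, 3 untreated and 3 pyruvate, was hybridised to 1 Affymetrix mouse array each. The deposited values are MAS5 signal intensities on a linear scale, per the submitters' processing notes, which give neither version nor settings. The trimmed mean signal was 150.0 on each array, so the authors had scaled them alike, and median signals were 30.3 to 33.0. Array pairs correlated at 0.990 to 0.993 within and 0.974 to 0.977 between groups across tested probe sets, which are not replicates, and shared at most 0.953% of values. Arrays have no read depth, and their number limits precision.

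Of 45037 non-control probe sets, the platform annotation gave 34945 a single symbol (1 gene), 932 more than 1 and 9160 no symbol; the 64 control probe sets were left out. All 46 members matched a RefSeq gene through the Entrez identifier with the same symbol. The 22519 probe sets with a mean log2(signal + 16) at or above the median, 5.53, were fitted with limma 3.58.1 in R 4.3.3 (lmFit, eBayes with a variance trend, two-sided), with Benjamini-Hochberg adjustment over all of them and a threshold of 0.05. Each gene was represented by the probe set with the highest mean over the 6 arrays. Fold changes on this scale understate those of dim genes. On simulated data with 50 probe sets changed at each size, the fit called 8% of changes of 0.25 and 54% of those of 0.5. It called 82% of changes of 1 and 100% of those of 2, and 8 of its 130 calls fell on unchanged probe sets. Fewer probe sets were changed there than were called in these data, so these shares do not carry over directly. Within-array pairs were tested with exact permutation in scipy 1.17.1.

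Samples with the same replicate number did not deviate together (correlations of deviations of -0.01, 0.01 and 0.02), so the numbers were not taken to pair them. Alternatives were pseudocounts of 1 and 64, no filter and a stricter one (62.2 signal units), quantile, cyclic loess and median scaling, no variance trend, robust variances, the replicate block, the mean over probe sets, and each array left out. Members, substrate groups, partner lists and named genes were chosen with earlier results of these data known. The text names every member, and values per array are given for called members and a fixed set of main carriers, and also, chosen after their values were seen, for Slc25a26, Slc25a27, Slc25a51 and some second probe sets; from each partner list up to 4 called genes with the largest change are named. Motifs and the windows shown were chosen later.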

Additional observations from a re-analysis of the deposited data

How the results depend on the processing

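Over 35 tested carriers and 17 alternatives, 540 of 592 values kept their direction and side of the threshold, 29 calls were lost, 9 were gained and 14 values changed sign. Of those 14 only Slc25a3 was called as reported, and none was called after the change. After quantile normalization Slc25a3 was at -0.067 and Slc25a5 at -0.057. With probe sets averaged Slc25a5 was at -0.147, Slc25a12 at -0.043, Slc25a15 at 0.092, Slc25a32 at -0.047, Slc25a46 at 0.0032 and Slc25a53 at 0.155. With each array left out Slc25a25 ranged from -0.072 to 0.138, Slc25a40 from -0.028 to 0.179, Slc25a47 from -0.157 to 0.058 and Slc25a53 from -0.182 to 0.062. The count of carriers called higher, 11 as reported, was 8 after quantile and 9 after cyclic loess normalization, 7 without the signal filter, where more probe sets are tested and 46 carriers enter, and 7 to 13 with each array left out. The count called lower was 1, or 2 with probe sets averaged and 1 to 2 with each array left out. Averaging the probe sets ended 2 calls, those of Slc25a3 (limma adjusted p = 0.47) and Slc25a39, and added 2. The median change of the tested carriers was 0.095 with a pseudocount of 64, which shrinks dim genes more, and 0.12 to 0.15 under the other alternatives that keep all arrays. With the replicate block, 10 carriers were called higher and 1 lower, the lost call being Slc25a11 (adjusted p = 0.078); among brightest probe sets of carriers the block changed no other call, and samples shared only a number. 2 of 3 untreated samples correlated best with their own number. Among the pairs, the shift of Slc25a4 against Slc25a5 was 0.13 after quantile normalization and 0.22 as reported. For carriers near the floor, among them Ucp3, the low signal limits what can be seen.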
